A study of Sus scrofa with 12 samples.

Results

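The genes described here belong to families that serve the path of newly made proteins from the endoplasmic reticulum (ER) to the Golgi. Some members act elsewhere or in the return to the ER. All were taken by their symbols in pig oocytes: COPA, COPB, COPE, COPG, COPZ, SEC, COG, SSR or ARF with the endings of those families, TMED, TRAPPC and SAR1. Of 31908 identifiers in the deposited tables, 15029 could be named, and 74 carried such a symbol. Of these 74 genes, 51 had a mean of at least 1 FPKM (fragments mapped to a gene, scaled to the length of its transcript and to all mapped fragments of the library) over the 12 libraries and were tested, and 23 lay under that limit and are given at the end. ARF1, ARF2, ARF3, SEC23A, SEC61G, TMED2 and TRAPPC1 had no matching identifier and were not analysed here.

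The libraries hold denuded oocytes of Sus scrofa, taken before (0h) and after 22h or 46h of in vitro maturation (IVM), with 4 replicate libraries for each time. The oocytes came from antral follicles of prepubertal gilts. For IVM the cumulus-oocyte complexes were kept in the same medium with porcine follicular fluid, epidermal growth factor, PMSG and HCG, and each library was made from a pool of oocytes by SMART-Seq2. Whether replicates were separate collections of ovaries is not stated, so the p-values measure the spread between these libraries, which may in part be technical. The design text of the series names a different hour for the middle time than the sample labels, whose 22h is used.

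Secreted and membrane proteins enter the ER through the SEC61 translocon, where the signal sequence receptors (SSR1 to SSR4, the TRAP complex) assist and the signal peptidase (SEC11A or SEC11C) removes the signal sequence. COPII, a coat of SEC23, SEC24, SEC13 and SEC31 placed by the GTPase SAR1, buds vesicles off the ER, and TMED (p24) proteins help to load cargo into them. COPI, the coat recruited by ARF GTPases, returns escaped proteins to the ER, and the TRAPP and COG complexes tether vesicles at the Golgi. In a growing oocyte this route delivers the zona pellucida proteins, the cortical granules and secreted growth factors such as GDF9 and BMP15.

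Because cDNA was primed with oligo-dT, every value depends on a poly(A) tail, and the 3′ ends of the transcripts are therefore shown first. In the last 150 bases of RefSeq transcripts (Sscrofa11.1), the polyadenylation hexamer (AATAAA or ATTAAA) and the cytoplasmic polyadenylation element (CPE, TTTTAT or TTTTAAT), which can lengthen the tail of stored oocyte mRNAs, were searched on the transcript strand. The CPE form TTTTAAT can overlap AATAAA. The 8 windows below belong to genes described further on, of which SEC11A passed in no comparison and is shown for its high level, with 30 bases each from 5′ to 3′ on the transcript strand and the matched motifs in capitals. A match can lie outside the bases shown. TRAPPC11 also has a hexamer, which starts 22 bases from the transcript end, while SSR1 has none in its last 150 bases.
SSR1: tttagtgtcgtTTTTAATtttaaataattt
SAR1B: caaacgtcatgcAATAAAacaaaccctcat
SEC11A: ttcaaaattttaAATAAAagactttgcata
COPZ1: tgtgcaaaaaggAATAAAacattttttttt
ARF4: ggaattattcctAATAAAattataaaacat
COG3: gaaattgctgtTTTTAATAAAtgtgaattt
TRAPPC11: ttcctggaaatTTTTATtatttaaaagtgt
SEC61B: ctatggctAATAAActTTTTAATtcattta

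These windows lie in the 3′ UTR at chr7:4663022-4663051 (minus strand), chr2:136848853-136848882 (minus), chr7:52871974-52872003 (plus), chr5:19542342-19542371 (plus), chr13:39410098-39410127 (minus), chr11:21759206-21759235 (minus), chr15:45040685-45040714 (plus) and chr1:240991791-240991820 (plus). A window of 150 bases could be read for 59 of the 74 genes. The hexamer was found in 53 of them (89.8%), against 71.4% of the 15865 windows of all genes. The CPE was found in 17 (28.8%), against 23.2% of all windows. By the call at 46h against 0h, the CPE was in 2 of 6 windows of genes that were higher, in 5 of 16 of genes that were lower and in 7 of 19 of genes that passed in neither direction. The hexamer was in 6 of 6, 12 of 16 (75%) and 18 of 19 (94.7%) of these windows. A match here says only that these letters occur in the window, and tail length was not measured.

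Total FPKM ranged from 697468 to 802184 over the 12 libraries, and the 74 genes took 0.356% to 0.519% of it. FPKM keeps no read count, so the depth and the counting error of single genes are unknown. The share of the mitochondrially encoded genes lay between 1.79% and 3.77% at 0h, between 8.06% and 12.02% at 22h and between 12.8% and 16.7% at 46h, which enters every scaled value. One 0h library, replicate 4, stood apart from the rest of its group (Pearson r of 0.934 to 0.970 with them over log2 values), and results that turn on it are given without it. At 22h, replicate 1 had r of 0.961 to 0.967 with the rest of its group and the highest mitochondrial share, 12.02%. Leaving it out also changed calls, as given below. All 14 oocyte markers with an identifier were tested, with a summed level between 29768 and 41254 FPKM at 0h, between 37823 and 43473 at 22h and between 38411 and 44950 at 46h. BTG4 carried most of the 46h sum, at 13936 to 17621 FPKM at 0h and 26454 to 30934 at 46h, whereas GDF9 went from 287 to 1451 FPKM at 0h down to 33.3 to 41.0 at 46h, ZP3 from 1481 to 4337 down to 51.5 to 199, and OOEP from 1184 to 1786 down to 103 to 146. Of 20 cumulus and granulosa cell markers, LHCGR, INHA, AMHR2, KRT8 and KRT18 were at 0 in all 12 libraries. STAR (2.06 to 7.58 FPKM), FST (2.51 to 9.58 FPKM) and VCAN were above 0 in all 12 and were tested. The summed level of the 20 lay between 46.3 and 88.8 FPKM at 0h, between 55.6 and 86.1 at 22h and between 118 and 143 at 46h, of which VCAN alone made 29.0 to 81.9, 47.4 to 77.9 and 105 to 136, and the part of this difference in the 46h results was not tested.

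The secretory genes did not move as a block: SSR1, SEC11C and the COPII GTPases SAR1A and SAR1B fell to a small part of their 0h level by 46h, while ARF4, COPB1, TRAPPC3 and SEC61B rose. At 22h against 0h, 5 of the 51 genes tested were higher (9.8%) and 11 lower (21.6%), where a call needs an adjusted p under 0.05 in limma and a fold change over 1.5. Over all 7013 genes tested, 7.84% were called higher and 18.9% lower (26.7% in either direction). At 46h against 0h, 7 of the 51 were higher (13.7%) and 21 lower (41.2%), against 16.8% and 39.1% of all genes (55.9% in either direction). At 46h against 22h, 5 were higher (9.8%) and 17 lower (33.3%), against 9.87% and 32.6% of all genes (42.4% in either direction). These shares lie near those of all genes, so the counts themselves set the list apart from nothing. All genes tested likewise changed in both directions. The counts by role that follow hold few genes each. They are to be read beside the same shares of all genes and are no result about a role. The 3 comparisons share libraries.

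The median log2 fold change of the 51 genes, on the log2(FPKM + 1) scale used throughout, was 0.04 at 22h against 0h, -0.39 at 46h against 0h and -0.21 at 46h against 22h, beside -0.0012, -0.25 and -0.26 over all genes. For the 51 genes the median at 22h against 0h was -0.018 without 0h replicate 2, -0.0018 without 22h replicate 1 and 0.16 without 0h replicate 4. The median at 46h against 0h was -0.18 without 0h replicate 4, -0.060 under median-of-ratios scaling and 0.25 under quantile normalization, and at 46h against 22h these scalings turned it to 0.11 and 0.24, while it was -0.13 without 22h replicate 2. In oocytes fewer transcripts per cell and a lower share of the library cannot be told apart, and neither can a shorter poly(A) tail. The split depended on how libraries were scaled. At 46h against 0h, median-of-ratios scaling gave 12 higher and 18 lower, and quantile normalization 20 and 14, in place of 7 and 21. Over all genes these scalings called 26.9% higher and 34.1% lower, and 41% and 25.5%, and they put the median at 0.0029 and 0.37. At 46h against 22h they gave 9 higher and 16 lower, and 12 and 12, in place of 5 and 17, where all genes had 19.1% and 26.2%, and 28.1% and 19.1%. At 22h against 0h quantile normalization gave 11 higher and 9 lower, and TPM without mitochondrially encoded genes 9 and 10, in place of 5 and 11, where all genes had 14.9% and 16.1%, and 11.3% and 17.3%. Under every alternative in which they were tested, 14 genes at 46h against 0h remained lower (SSR1, SSR2, SSR3, SEC11C, SAR1A, SAR1B, SEC23B, COPB2, COPZ1, ARF6, TRAPPC5, TRAPPC11, COG2 and COG6; TRAPPC5 was not tested with the filter at a mean of 5 FPKM) and 6 remained higher (SEC61B, TMED5, COPB1, ARF4, TRAPPC3 and TRAPPC6B).

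**Figure D1:**
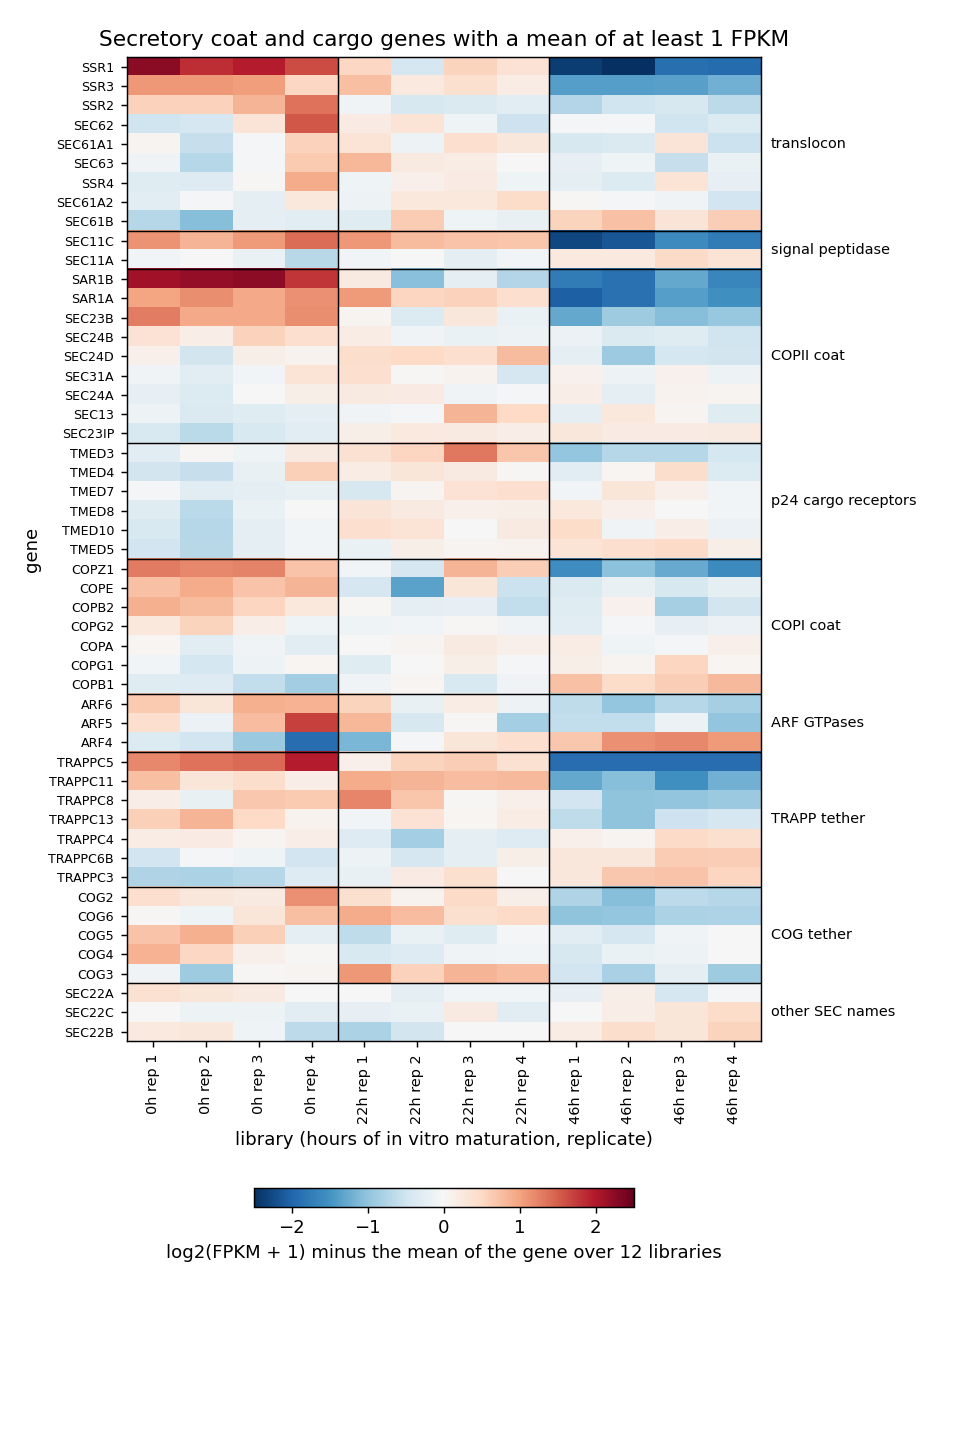
Heat map of the 51 tested genes (rows, grouped by role) in the 12 libraries (columns), with colour for log2(FPKM + 1) minus the gene's mean over the libraries, saturating at the ends of the colour bar. SSR1, SEC11C, SAR1A, SAR1B and TRAPPC5 turn from red at 0h to blue at 46h, ARF4 and COPB1 turn the other way, and 0h replicate 4 differs from the other 0h libraries for SEC62, SSR4, ARF5 and ARF4.

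By time, 34 of the 51 genes passed in at least 1 comparison (66.7%) and 6 in all 3 (11.8%), beside 63.7% and 13.5% of all genes. Of the 21 lower at 46h, 9 were already lower at 22h (42.9%), 11 passed in neither direction at 22h (52.4%), and 1, TMED3, was higher at 22h, beside 44.7%, 53.4% and 1.86% of the 2743 genes lower at 46h. These shares, too, lie near those of all genes. In 3 genes, COG3, TMED3 and TRAPPC4, the calls at 22h against 0h and at 46h against 22h pointed in opposite directions (5.88%, beside 2.45% of all genes). The 17 genes that passed in no comparison included the channel subunits SEC61A1 and SEC61A2, the COPII cage subunits SEC13 and SEC31A, and the COPI subunits COPA, COPG1 and COPG2. Of these 17, COPA, COPG1, SEC13, SEC24A, SEC31A, SEC22C, TMED4, TMED7, TMED8, SEC11A and SEC61A2 passed as higher at 46h against 0h with quantile normalization, and SEC22C, TMED8 and SEC11A also with median-of-ratios scaling.

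Of 9 translocon genes tested, 3 were lower and 1 higher at 46h against 0h, and the TRAP subunits parted. SSR1, the alpha subunit, read 104, 77.96, 85.1 and 66.9 FPKM in the 4 libraries at 0h, 30.6, 15.5, 31.4 and 27.2 at 22h and 3.25, 2.73, 4.97 and 4.75 at 46h. The 3 times did not overlap, and each later time lay wholly below the one before. Its mean fell from 83.5 ± 15.6 FPKM (SD, n = 4) at 0h to 3.92 ± 1.10 at 46h, a 21.3-fold difference of means, with log2 fold changes of -1.67 at 22h (limma, adjusted p = 0.000169) and -4.11 at 46h (SE 0.24, adjusted p = 2.66e-09) against 0h. SSR3, the gamma subunit, held 94.03 to 139.9 FPKM at 0h and 75.2 to 111 at 22h, and then 24.6 to 27.9 at 46h. It fell at 46h against 0h (log2 fold change -2.26, limma, adjusted p = 5.43e-08), while its difference of -0.53 at 22h was within the 1.5-fold limit. Without 0h replicate 4 or without 22h replicate 1 that 22h difference passed, with -0.67 (adjusted p = 0.00492) and -0.65 (adjusted p = 0.0121). SSR2, the beta subunit, fell mostly by 22h, from 68.9 ± 19.3 to 30.5 ± 3.22 FPKM (log2 fold change -1.12, limma, adjusted p = 0.000514), and stood at 24.7 ± 2.74 at 46h. SSR4, the delta subunit of the same complex, had 20.9 ± 10.2, 18.9 ± 2.25 and 17.2 ± 4.17 FPKM, and its log2 difference of -0.19 (SE 0.25) at 46h did not pass (limma, adjusted p = 0.529). In FPKM, which is per length, SSR1 was at 0h above SSR4 in every library, and at 46h below it in every library.

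SEC61B, the beta subunit of the channel, read 6.54, 4.95, 9.49 and 9.28 FPKM at 0h, 9.09, 18.3, 10.5 and 9.89 at 22h and 17.2, 19.5, 14.4 and 17.9 at 46h. The 46h libraries all lay above the 0h libraries, while the 22h libraries overlapped both. It rose at 46h against 0h by a log2 fold change of 1.12 (SE 0.23, limma, adjusted p = 0.000711). Its difference of 0.58 at 22h against 0h passed without 0h replicate 4 or without 22h replicate 1, at 0.68 (adjusted p = 0.0386) and 0.69 (adjusted p = 0.0486), and that of 0.54 at 46h against 22h passed without 22h replicate 2, at 0.75 (adjusted p = 0.0103). Both also passed with quantile normalization (0.74 and 0.99), the 22h difference with TPM without mitochondrially encoded genes (0.68) and that at 46h against 22h with median-of-ratios scaling (0.84). SEC62, which takes part in post-translational import, had the highest mean of the translocon genes over the 12 libraries, which 0h replicate 4 lifted, while SSR3 lay above it in 0h replicates 1 and 2. It read 88.9, 94.6, 159.6 and 376 FPKM at 0h, 147, 161, 117 and 88.5 at 22h and 125, 123, 89.9 and 99.7 at 46h. The highest value belonged to 0h replicate 4, and the times overlapped. Its log2 difference at 46h against 0h was -0.47 (limma, adjusted p = 0.286) with that library and -0.03 without it. The pore subunit SEC61A1 held means of 19.9, 22.5 and 16.3 FPKM, its relative SEC61A2 5.67, 7.08 and 5.29, and SEC63, the partner of SEC62, 6.16, 7.91 and 4.89, and none of these differences passed in limma with the scaling and libraries used throughout (adjusted p from 0.0815 to 0.72). Without 46h replicate 3 SEC61A1 passed as lower at 46h against 22h, at -0.66 (adjusted p = 0.0383), as did SEC63 with TPM, at -0.67 (adjusted p = 0.0403), and with quantile normalization SEC61A2 passed as higher at 46h against 0h, at 0.59 (adjusted p = 0.00851).

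The catalytic subunits of the signal peptidase differed in their course. SEC11A was among the 5 secretory genes with the highest mean, at 993, 1035, 929 and 639 FPKM at 0h, 987, 1037, 885 and 989 at 22h and 1237, 1226, 1439.6 and 1315 at 46h. All 46h libraries lay above all earlier ones. The log2 difference of 0.56 (SE 0.17, limma, adjusted p = 0.00937) at 46h against 0h was within the 1.5-fold limit and passed it with median-of-ratios scaling, at 0.89 (adjusted p = 0.0021), with quantile normalization and with TPM without mitochondrially encoded genes, as it did without 0h replicate 1, without 0h replicate 2 or without 46h replicate 2, at 0.61 (adjusted p = 0.0104), 0.63 (adjusted p = 0.00707) and 0.59 (adjusted p = 0.0156). SEC11C read 76.4, 62.96, 72.8 and 92.5 FPKM at 0h, 73.6, 60.2, 57.05 and 56.3 at 22h and 6.32, 7.03, 10.6 and 9.56 at 46h. The 0h and 22h libraries overlapped, and the 46h libraries lay far below both. SEC11C fell by 9.08-fold in its means (log2 fold change -3.05, SE 0.19, limma, adjusted p = 4.53e-09), with nearly all of the difference between 22h and 46h.

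Of 9 COPII genes tested, 4 were lower and 1 higher at 46h against 0h, with the falls in SAR1A, SAR1B, SEC23B and SEC24B. SAR1B, a GTPase that places the coat on the ER membrane, read 54.2, 58.5, 59.7 and 43.7 FPKM at 0h, 14.2, 5.28, 9.98 and 6.74 at 22h and 2.86, 2.54, 4.35 and 3.17 at 46h. Its times did not overlap. The log2 fold change was -2.52 at 22h (limma, adjusted p = 1.38e-05) and -3.71 at 46h (SE 0.24, adjusted p = 1.01e-08) against 0h. SAR1A, its close relative, read 54.7, 61.4, 52.7 and 60.5 FPKM at 0h, 57.1, 39.7, 40.5 and 36.3 at 22h and 5.78, 6.64, 9.84 and 8.72 at 46h. Here the 0h and 22h libraries overlapped, and the fall came after 22h. SAR1A had log2 fold changes of -0.41 at 22h (limma, adjusted p = 0.107) and -2.76 at 46h (adjusted p = 1.28e-08). The SAR1B gene (chr2:136848843-136874248) lies within SEC24A (chr2:136833399-136952181) on the opposite strand, and the libraries do not mark strand, so reads of their shared bases cannot be told apart. Whether their exons share bases was not checked. SEC24A itself held 4.40, 5.08 and 4.84 FPKM and passed in no comparison.

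SEC23B, the inner coat subunit that drives GTP hydrolysis by SAR1, fell in steps, from means of 47.5 ± 5.66 FPKM at 0h through 21.5 ± 4.21 at 22h down to 10.1 ± 1.29 at 46h. The libraries of the 3 times were apart, with log2 fold changes of -1.12 and -2.13 against 0h (limma, adjusted p = 0.000267 and 7.29e-08). The step from 22h to 46h was -1.01 (adjusted p = 0.00022), a call lost with quantile normalization (-0.53). Among the SEC24 cargo adaptors, SEC24B was lower at 46h, from 1.60 ± 0.313 to 0.588 ± 0.163 FPKM (log2 fold change -0.71, limma, adjusted p = 0.000748), a call lost with median-of-ratios scaling and turned to 0.0069 by quantile normalization. SEC24B reached a mean of 1 FPKM only through 0h (0.93 and 0.588 FPKM at 22h and 46h), so being tested already required a high 0h level. Without 0h replicate 1, 3 or 4 its mean lay under 1 FPKM, and it was not tested there. SEC24D held 2.998, 4.88 and 1.85 FPKM and fell at 46h against 22h (log2 fold change -1.06, limma, adjusted p = 0.000334), a call that quantile normalization ended (-0.54). Its difference of 0.57 at 22h against 0h lay just within the limit and passed without 0h replicate 1, 3 or 4 or 22h replicate 1 or 3 (from 0.60 to 0.63) and with a pseudocount of 0.1, quantile normalization or TPM with or without mitochondrially encoded genes (from 0.59 to 0.74). That of -0.49 at 46h passed without 0h replicate 2 (-0.63), with a pseudocount of 0.1 (-0.68) and with TPM (-0.60). SEC23IP, a partner of SEC23 at ER exit sites, read 10.2, 8.05, 10.2 and 10.99 FPKM at 0h, 15.1, 16.1, 15.99 and 15.3 at 22h and 16.8, 15.8, 15.7 and 15.99 at 46h. The 0h libraries all lay below the later ones, whose ranges overlapped each other. Its log2 fold changes of 0.62 and 0.66 (limma, adjusted p = 0.0035 and 0.000691) lay just over the limit. With TPM the 46h value was 0.57, and without 0h replicate 2 they were 0.54 (adjusted p = 0.0103) and 0.57 (adjusted p = 0.00228). The cage subunits SEC13 and SEC31A held means of 34.3, 53.1 and 40.05, and of 7.09, 7.41 and 7.09 FPKM. Only with quantile normalization did both pass as higher at 46h against 0h, and SEC13 passed as higher at 22h without 22h replicate 1 or without 22h replicate 2, with 0.70 (adjusted p = 0.0257) and 0.68 (adjusted p = 0.0448), and with quantile normalization (0.66) or TPM without mitochondrially encoded genes (0.65).

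**Figure D2:**
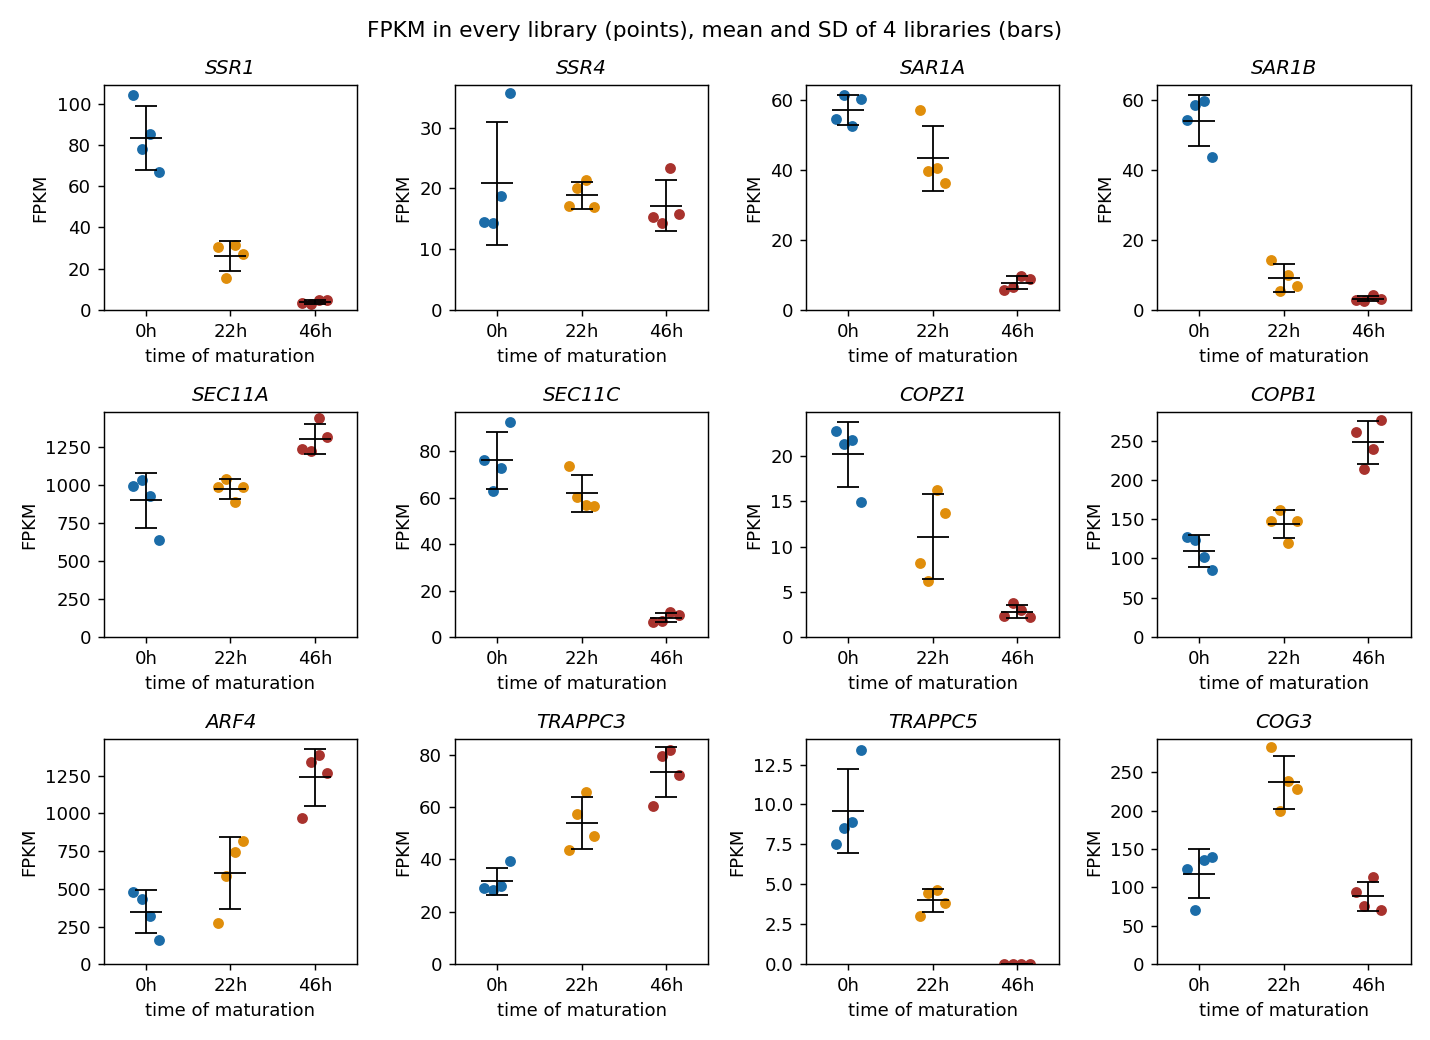
FPKM of 12 genes at each time of maturation, with a point for each library and bars for the mean and SD of 4 libraries, each panel on its own linear axis from 0. SSR1 and SAR1B are lower by 22h, SAR1A and SEC11C are lower only at 46h, COG3 peaks at 22h, and the 4 libraries of TRAPPC5 at 46h lie at 0.

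Of 6 p24 cargo receptors tested, TMED3 and TMED10 were higher at 22h against 0h, and at 46h TMED5 was higher and TMED3 lower. TMED3 was scarce and peaked at 22h, with 1.41, 1.95, 1.68 and 2.36 FPKM at 0h, 2.76, 3.19, 6.24 and 3.67 at 22h and 0.470, 0.770, 0.750 and 1.14 at 46h. The 3 times did not overlap. TMED3 rose at 22h (log2 fold change 0.76, limma, adjusted p = 0.0118) and fell at 46h against 22h (-1.44, adjusted p = 4.97e-05). The 22h rise was 0.57 (adjusted p = 0.0292) without 22h replicate 3. Its difference of -0.68 at 46h against 0h (limma, adjusted p = 0.00987) was lost with median-of-ratios scaling and was 0.021 with quantile normalization. TMED5 read 11.1, 9.39, 13.2 and 14.98 FPKM at 0h, 13.99, 17.6, 16.6 and 16.8 at 22h and 20.4, 21.6, 22.3 and 17.6 at 46h. The 46h libraries all lay above the rest, and TMED5 rose at 46h against 0h by 0.72 (SE 0.16, limma, adjusted p = 0.00148). TMED10, a core member of the p24 complexes, held 19.6 ± 3.69, 30.01 ± 3.66 and 26.99 ± 5.59 FPKM, with a log2 difference of 0.60 at 22h (limma, adjusted p = 0.0235) that did not pass without 0h replicate 1, 0h replicate 2, 22h replicate 1 or 22h replicate 2 (0.59 with adjusted p = 0.0524, 0.48 with adjusted p = 0.0694, 0.54 with adjusted p = 0.0524 and 0.57 with adjusted p = 0.0604). At 46h against 0h the difference of TMED10 was 0.44 and passed with median-of-ratios scaling (0.76, adjusted p = 0.00128) and quantile normalization (0.99, adjusted p = 0.000194). TMED4, TMED7 and TMED8 passed in no comparison, with means between 4.92 and 37.7 FPKM. TMED4 passed as higher at 22h without 0h replicate 4, at 0.59 (adjusted p = 0.0286), and TMED8 with quantile normalization or TPM without mitochondrially encoded genes, at 0.67 (adjusted p = 0.0026) and 0.59 (adjusted p = 0.0131).

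**Figure D3:**
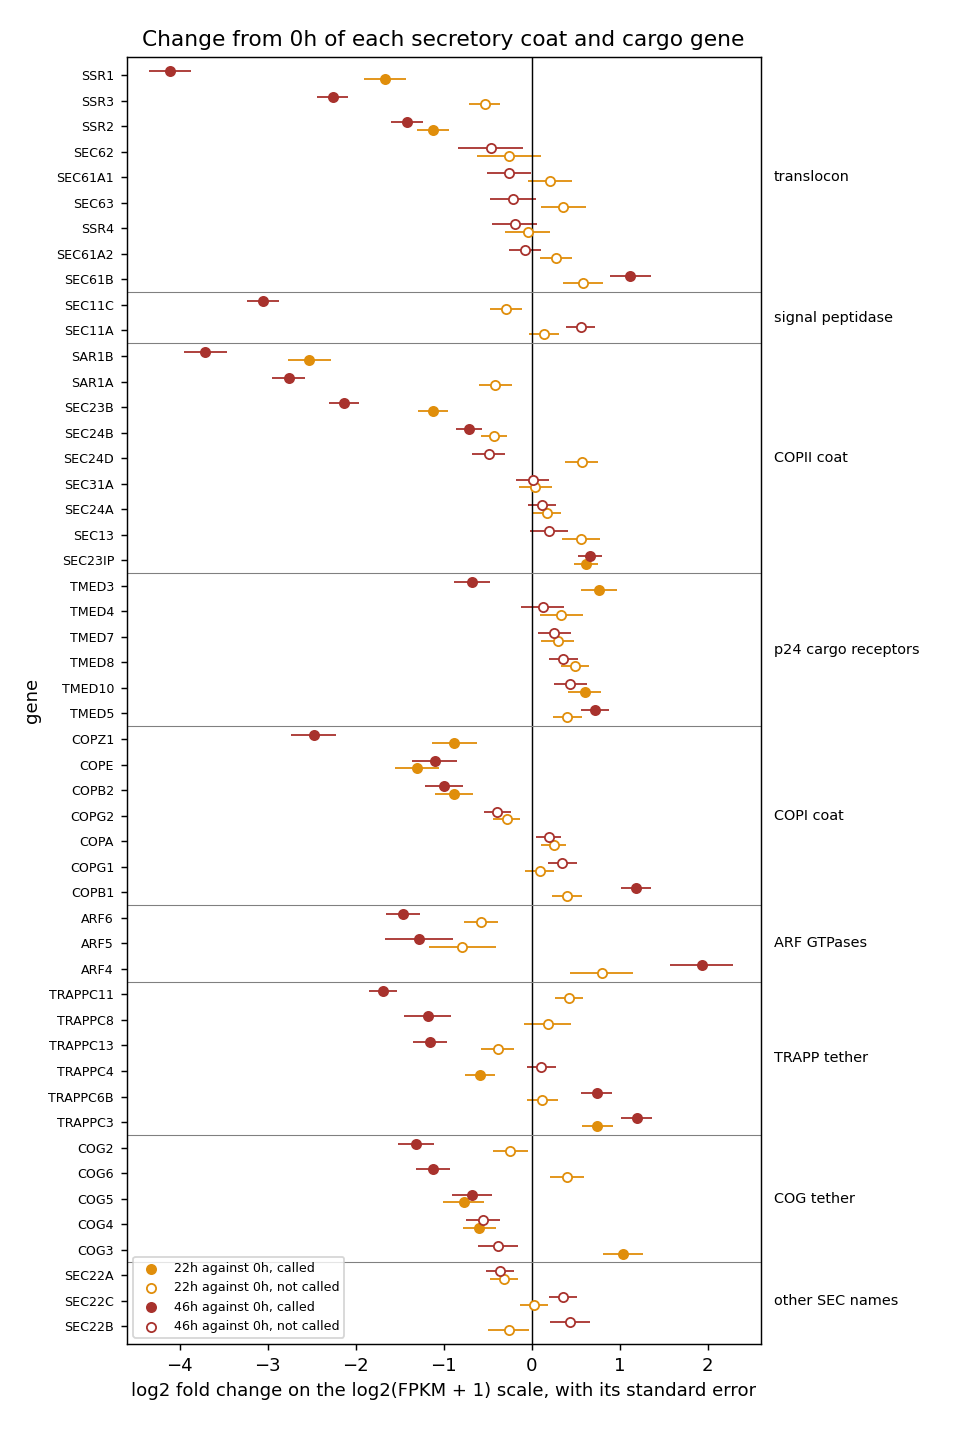
Log2 fold change from 0h of 50 tested genes at 22h (orange) and 46h (red) on the log2(FPKM + 1) scale, with bars for the standard error and filled points for genes called in limma; TRAPPC5, listed at 0 at 46h, is left out. The falls of SSR1, SAR1B, SEC11C and SAR1A at 46h reach further from 0 than the rises of ARF4, TRAPPC3, COPB1 and SEC61B.

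Of 7 COPI genes tested, 3 were lower (COPZ1, COPE and COPB2) and 1 higher (COPB1) at 46h against 0h. COPZ1, the zeta subunit, read 22.8, 21.3, 21.8 and 14.9 FPKM at 0h, 8.18, 6.22, 16.3 and 13.7 at 22h and 2.30, 3.74, 3 and 2.19 at 46h. At 46h every library lay below every earlier one, and the 0h and 22h ranges overlapped through 0h replicate 4. COPZ1 fell at 46h against 0h by 2.48 on the log2 scale (SE 0.26, limma, adjusted p = 1.17e-06), and at 22h by 0.88 (adjusted p = 0.0189), which did not pass without 0h replicate 1 or without 22h replicate 2 (-0.82 with adjusted p = 0.0509 and -0.66 with adjusted p = 0.0631). COPB1, the beta subunit, read 127, 124, 102 and 85.01 FPKM at 0h, 147, 161, 119 and 148 at 22h and 261, 214, 239 and 277 at 46h. All 46h libraries were above all others, and COPB1 rose by 1.18 at 46h against 0h (SE 0.17, limma, adjusted p = 3.02e-05). COPE, the epsilon subunit, read 53.2, 60.9, 52.7 and 57.7 FPKM at 0h, 23.4, 11.97, 39.1 and 21.5 at 22h and 24.5, 27.6, 23.9 and 26.6 at 46h. It was lower at both later times, which overlapped, with log2 fold changes of -1.30 and -1.10 (limma, adjusted p = 0.00166 and 0.00168), of which the 46h call was lost with quantile normalization. COPB2, the beta prime subunit, fell from 168 ± 32.1 to 90.8 ± 16.1 and 85.2 ± 23.4 FPKM (log2 fold change -0.99 at 46h against 0h, limma, adjusted p = 0.00114). COPA, COPG1 and COPG2 stood between 1.25 and 4.40 FPKM in their means and passed in no comparison, although COPA and COPG1 passed as higher at 46h against 0h with quantile normalization.

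Of the 3 ARF genes tested, ARF4 was higher and ARF5 and ARF6 were lower at 46h against 0h, ARF5 not under quantile normalization. ARF4, a GTPase that recruits COPI and works in Golgi export, had a 46h mean exceeded only by that of SEC11A among these genes. It read 479, 433, 317 and 162 FPKM at 0h, 275, 584, 744 and 814 at 22h and 967, 1340.1, 1384 and 1267 at 46h. The 46h libraries all lay above the others, and the 0h and 22h libraries overlapped widely. ARF4 rose at 46h against 0h (log2 fold change 1.93, SE 0.36, limma, adjusted p = 0.000288), and did so by 1.60 (adjusted p = 0.000423) without 0h replicate 4, its lowest library. At 46h against 22h the rise of 1.14 (limma, adjusted p = 0.0172) did not pass without a filter on low values (adjusted p = 0.0605) or without 22h replicate 1, at 0.80 (adjusted p = 0.0533), and without that library the 22h difference from 0h passed, at 1.14 (adjusted p = 0.0144), as it did with quantile normalization, at 0.89 (adjusted p = 0.0436). ARF5, of the same class as ARF4, went the other way from a low level, with 5.42, 3.37, 7.22 and 14.7 FPKM at 0h, 7.52, 2.63, 3.92 and 1.68 at 22h and 2.14, 2.13, 3.34 and 1.44 at 46h. The 0h values spread widely, and the lowest of them lay just above the highest at 46h. Against 0h the log2 fold change of ARF5 at 46h was -1.28 (SE 0.38, limma, adjusted p = 0.0092), and it was -0.94 (adjusted p = 0.0253) without 0h replicate 4 and was lost with quantile normalization. ARF6, which acts at the plasma membrane, read 12.2, 9.32, 14.6 and 14.2 FPKM at 0h, 11.4, 6.35, 8.49 and 6.68 at 22h and 4.41, 3.32, 4.09 and 3.75 at 46h. It was lower at 46h than in any earlier library (log2 fold change -1.46, SE 0.19, limma, adjusted p = 1.33e-05). At 22h the differences of ARF5 and ARF6 from 0h did not pass with all libraries, except ARF6 with a pseudocount of 0.1 (-0.63, adjusted p = 0.0411) and with TPM (-0.60, adjusted p = 0.0283), and both passed without 0h replicate 2, at -1.06 (adjusted p = 0.0498) and -0.70 (adjusted p = 0.0163), and without 22h replicate 1, at -1.09 (adjusted p = 0.0346) and -0.73 (adjusted p = 0.0093).

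The TRAPP subunits, which share a core in a guanine nucleotide exchange complex for RAB1, included genes of both directions. At 46h against 0h, 2 of the 7 tested were higher and 4 lower, beside 16.8% and 39.1% of all genes. TRAPPC5, a core subunit, read 7.53, 8.52, 8.89 and 13.4 FPKM at 0h and 3.04, 4.47, 4.66 and 3.83 at 22h, and was listed at 0 in all 4 libraries at 46h. The times did not overlap, and no fold is given against values listed at 0. TRAPPC5 was called lower in all 3 comparisons, with -1.06 at 22h against 0h (limma, adjusted p = 0.000513). TRAPPC3, another core subunit, read 28.96, 28.2, 29.8 and 39.5 FPKM at 0h, 43.4, 57.3, 65.9 and 48.99 at 22h and 60.4, 79.7, 81.6 and 72.1 at 46h. Every later library lay above every 0h library, and TRAPPC3 rose by 0.75 at 22h (limma, adjusted p = 0.00565) and 1.19 at 46h (SE 0.18, adjusted p = 3.82e-05). TRAPPC4, also of the core, read 95.1, 95.96, 87.8 and 94.2 FPKM at 0h, 66.6, 46.1, 71.5 and 66.3 at 22h and 91.6, 87.1, 116 and 111 at 46h. The 22h libraries lay below all the others, while 0h and 46h overlapped.

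The dip of TRAPPC4 was -0.59 at 22h against 0h (limma, adjusted p = 0.0163), and its return was 0.70 at 46h against 22h (adjusted p = 0.00345). The dip was at the 1.5-fold limit and was lost under median-of-ratios, quantile and TPM scaling without mitochondrially encoded genes, and without 0h replicate 1, 2 or 4 or without 22h replicate 2 (-0.58 with adjusted p = 0.0391, -0.57 with adjusted p = 0.0347, -0.58 with adjusted p = 0.0204 and -0.45 with adjusted p = 0.0572). Without 22h replicate 2 the return was 0.56 (adjusted p = 0.0112). TRAPPC6B, a core subunit as well, rose from 12.1 ± 2.11 to 20.8 ± 3.03 FPKM (log2 fold change 0.74, limma, adjusted p = 0.00219). TRAPPC8, TRAPPC11 and TRAPPC13 belong to the larger TRAPP III complex. TRAPPC11 fell from 12.7 ± 2.42 at 0h and 17.2 ± 0.854 at 22h to 3.22 ± 0.554 FPKM at 46h (log2 fold change -1.69 against 0h, limma, adjusted p = 4.55e-07). TRAPPC8 and TRAPPC13 fell at 46h against 0h by 1.18 and 1.16 on the log2 scale (limma, adjusted p = 0.00153 and 0.000101), and both calls were lost with quantile normalization.

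Of 5 COG genes tested, COG2, COG5 and COG6 were lower at 46h against 0h. COG3, a subunit of the COG complex that tethers vesicles within the Golgi, was the most abundant COG gene and peaked at 22h. It read 124, 70.8, 136 and 139.7 FPKM at 0h, 282, 199, 239 and 228 at 22h and 94.3, 75.5, 113 and 70.7 at 46h. The 22h libraries lay above all others, and 0h and 46h overlapped. COG3 rose by 1.04 at 22h (SE 0.23, limma, adjusted p = 0.00359) and fell by 1.43 at 46h against 22h (adjusted p = 0.00014). At 46h against 0h its difference of -0.39 did not pass (limma, adjusted p = 0.155), and without 0h replicate 2 it passed as lower, at -0.61 (adjusted p = 0.0138). COG2 read 8.66, 7.80, 7.49 and 14.9 FPKM at 0h, 8.55, 6.69, 9.07 and 6.95 at 22h and 3.29, 2.44, 3.59 and 3.43 at 46h. Its 46h libraries lay below all others (log2 fold change -1.31 against 0h, limma, adjusted p = 5.74e-05). COG6 stood higher, with means of 44.7, 58.6 and 19.5 FPKM, and fell by 1.12 at 46h against 0h (limma, adjusted p = 0.000172).

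COG5 read 75.1, 85.5, 69.4 and 38.3 FPKM at 0h, 29, 40.9, 36.96 and 43.96 at 22h and 37.6, 33.9, 42.8 and 46.1 at 46h. In 0h replicate 4 it was within the range of the later times, and the other 0h libraries were above them. Its differences of -0.77 at 22h and -0.68 at 46h (limma, adjusted p = 0.0203 and 0.0189) were -1.02 and -0.92 (adjusted p = 0.000786 and 0.000405) without 0h replicate 4. The 22h call was lost without 0h replicate 1, 2 or 3 or 22h replicate 1 (log2 fold changes from -0.74 to -0.64) and with the 2 compared stages alone (adjusted p = 0.0501), and the 46h call without 0h replicate 1, 0h replicate 2 or 46h replicate 2 (from -0.60 to -0.54) and with median-of-ratios or quantile scaling (-0.36 and -0.14). COG4 stood at 1.99 ± 0.834, 0.932 ± 0.212 and 0.990 ± 0.236 FPKM. It reached a mean of 1 FPKM only through 0h, so being tested already required a high 0h level. Its 22h difference of -0.59 (limma, adjusted p = 0.0277) lay at the limit and was lost in 4 of the leave-out fits, without 0h replicate 1 or 2 or 22h replicate 1 or 2 (from -0.56 to -0.43). The call was also lost with median-of-ratios scaling (-0.58), quantile normalization (-0.49), no filter on low values (adjusted p = 0.07), the 2 compared stages alone (adjusted p = 0.0573) and the replicate block (adjusted p = 0.0595), while its 46h difference passed without 0h replicate 3, 0h replicate 4 or 46h replicate 4 (from -0.67 to -0.62) and with a pseudocount of 0.1 or TPM (-0.88 and -0.68).

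Among the genes that carry a SEC name outside these complexes, the vesicle SNARE SEC22B held 41.6 ± 11.6, 34.3 ± 8.89 and 55.1 ± 6.20 FPKM. It was higher at 46h than at 22h (log2 fold change 0.70, limma, adjusted p = 0.0226), a call lost with TPM, without a filter on low values, and without 22h replicate 1, 22h replicate 2, 46h replicate 2 or 46h replicate 4 (from 0.54 to 0.67). At 46h against 0h its difference of 0.44 did not pass, but did with median-of-ratios scaling (0.76, adjusted p = 0.0217) and quantile normalization (0.93, adjusted p = 0.00276). Its relatives SEC22A and SEC22C passed in no comparison, with means of 16.2, 12.8 and 12.5, and of 2.48, 2.58 and 3.49 FPKM.

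Ratios of related genes within a library do not depend on a factor common to all genes of the library, apart from the pseudocount, but quantile normalization, which moves genes by their level, can change them and was not applied to them. For 8 pairs of relatives with both genes tested, the log2 ratio of (FPKM + 1) was compared between times by an exact two-sided permutation test of 4 against 4 libraries, whose smallest p is 0.0286. Of the 24 comparisons, 14 reached that p, which is 0.049 after Benjamini-Hochberg adjustment over the 24. Other pairs of genes were not compared in this way, so the count of 14 is no result about relatives as such. The ratio of SAR1A to SAR1B was 0.09 ± 0.27 (SD) at 0h, where both genes had about the same level, 2.21 ± 0.37 at 22h and 1.04 ± 0.17 at 46h. All 3 times were apart (exact permutation p = 0.0286 in each comparison). SEC11A over SEC11C stood at 3.53 ± 0.53, 3.96 ± 0.18 and 7.14 ± 0.22. The difference between 0h and 22h did not pass (exact permutation p = 0.143), and the 46h libraries lay above both.

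ARF4 over ARF5 was 5.38 ± 1.45 at 0h, 6.96 ± 1.37 at 22h and 8.59 ± 0.36 at 46h, with the 46h libraries apart from both earlier times (exact permutation p = 0.0286), of which the difference from 22h was not kept with a pseudocount of 0.1 (p = 0.0857). SEC24A over SEC24B was 1.05 ± 0.14, 1.65 ± 0.12 and 1.88 ± 0.18, with 0h below both later times. TMED3 over TMED7 was -2.98 ± 0.27, -2.51 ± 0.32 and -3.91 ± 0.29, lowest at 46h in every library. SEC22A over SEC22C was 2.30 ± 0.07 at 0h and lower at 22h (1.96 ± 0.23) and 46h (1.58 ± 0.32). COPG1 over COPG2 was -1.22 ± 0.47, -0.84 ± 0.14 and -0.48 ± 0.28, of which the 46h and 22h libraries were apart. SEC61A1 over SEC61A2 differed by -0.18 between 46h and 0h, with overlapping libraries (exact permutation p = 0.543). Where relatives are near-identical, the authors' quantification divides shared reads between them, so their ratios carry that uncertainty.

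**Figure D4:**
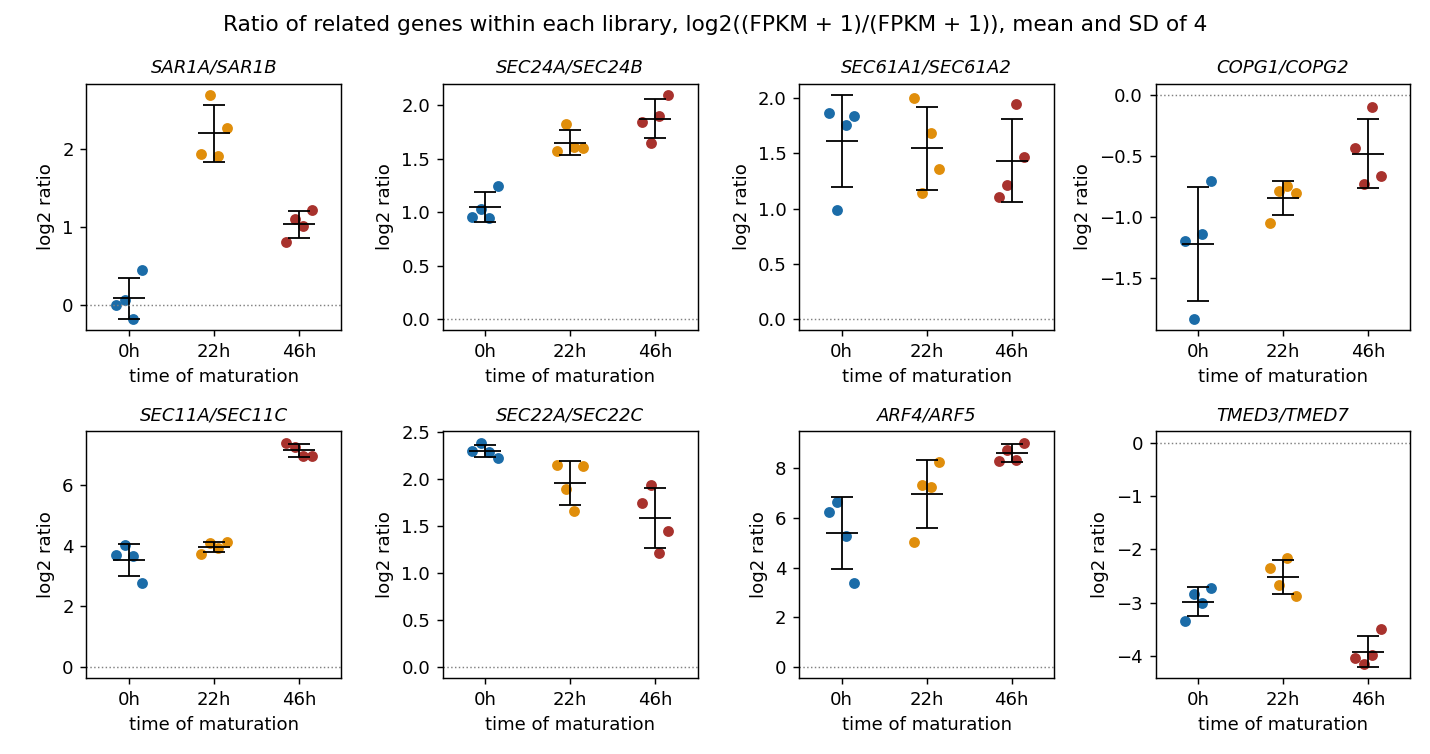
Log2 ratio of (FPKM + 1) of related genes within each library (points), with the mean and SD of 4 libraries (bars), at 0h, 22h and 46h; the dotted line at 0 marks equal levels. SAR1A/SAR1B is near 0 at 0h and highest at 22h, SEC11A/SEC11C changes after 22h, and the times overlap for SEC61A1/SEC61A2.

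Of the 23 genes under the limit of 1 FPKM, SEC14L4, SEC16B, TMED6, TRAPPC3L and TRAPPC6A were listed at 0 in all 12 libraries, 17 were below 1 FPKM in every library, these 5 included, and 6 reached 1 FPKM in some library. The other 18 were compared by the exact two-sided permutation test in 54 comparisons, without adjustment, and 7 gave the smallest p of 0.0286. That share was not counted over all genes under the limit, so the 7 are no result about these genes as a group. COG8 read 1.29, 1.75, 1.34 and 1.69 FPKM at 0h, 0.800, 0.950, 1.20 and 0.690 at 22h and 0.520, 0.510, 0.580 and 0.320 at 46h, and its times did not overlap. COG1 held 0.620 to 1.25 FPKM at 0h and 0.260 to 1.02 at 22h, both above the 0.0800 to 0.160 at 46h. TRAPPC2L read 0.580, 0.430, 0.500 and 2.73 FPKM at 0h and was listed at 0 in all 4 libraries at 46h, and the lipid-binding SEC14L2 held 0.190 to 0.750 at 0h but only 0.0400 to 0.0900 at 46h. The rest, among them the exit-site scaffold SEC16A at 1.03, 1.11 and 0.772 FPKM and the TRAPP II subunit TRAPPC9 at 0.880, 0.810 and 0.672, did not reach that p. Whether their low level hid small differences was not tested.

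Reads of bases shared by overlapping genes cannot be told apart without strand. Of 71 of these genes with a RefSeq position, 24 overlapped another gene, among them COPB2 with MRPS22, COG5 with HBP1, SSR3 with KCNAB1, TMED5 with CCDC18, TRAPPC5 with PCP2 and TRAPPC13 with SGTB, each on the opposite strand. COG1 overlapped FAM104A and SLC39A11 on the opposite strand. COG8 overlapped PDF on the same strand, which strand would not resolve. Overlap was taken over whole genes, introns included. How far the values of these 24 carry that uncertainty was not tested.

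Other genes of the route, which the symbols above leave out, were counted in the same way. Of 56 such genes, in a list also written with earlier results of these data known (signal recognition particle, other signal peptidase subunits, SNAREs, cargo receptors, ARF regulators), 53 had an identifier and 40 were tested. In limma, 4 were higher and 8 lower at 22h against 0h (10% and 20%, beside 7.84% and 18.9% of all genes), 6 and 16 at 46h against 0h (15% and 40%, beside 16.8% and 39.1% of all genes), and 2 and 16 at 46h against 22h (5% and 40%, beside 9.87% and 32.6%), with median log2 fold changes of 0.07, -0.30 and -0.28. On the log2(FPKM + 1) scale, which understates the change of low genes, the 4 largest falls at 46h against 0h belonged to CNIH4, a cornichon cargo receptor, from 1248 ± 383 to 1.57 ± 0.538 FPKM, the SNARE USE1, from 17.6 ± 6.47 to 0.347 ± 0.294, SPCS3, the signal peptidase subunit next to SEC11, from 12.9 ± 3.97 to 0.105 ± 0.0265, and YIF1A, a membrane protein of ER to Golgi vesicles, from 11.1 ± 2.17 to 0.0175 ± 0.0350. The largest rises belonged to TFG, an organiser of ER exit sites (1.27 on the log2 scale), the calcium-binding PEF1 (1.20) and the KDEL receptor KDELR2 (1.17).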

How the data were processed

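RNA of 12 oocyte libraries was amplified by SMART-Seq2 from an oligo-dT primer. The submitters' processing notes name FastQC, Trim Galore, STAR, HTSeq and RSEM, and the study's methods give STAR alignment to Sscrofa11 and RSEM quantification. As deposited by the authors, each file holds 1 FPKM value per Ensembl gene identifier, relative to transcript length and to the mapped fragments of the library. Read depth is unknown, and the SD over 4 libraries is the measure of precision. Identifiers were named from a reference table, members were taken by symbol, and positions and 3′ ends came from RefSeq on Sscrofa11.1. The members, the gene lists and the roles were chosen with earlier results of these data known. The 7013 genes whose mean reached 1 FPKM entered a two-sided limma fit (version 3.58.1, R 4.3.3) of log2(FPKM + 1) on stage over 12 libraries, by lmFit and eBayes with a trend, with Benjamini-Hochberg adjustment over all of them, and a call needed an adjusted p under 0.05 and a fold change over 1.5. Members under that limit and ratios of relatives were compared by an exact two-sided permutation test (70 arrangements, scipy 1.17.1). Given in every library were the largest rise and fall called in each role at 46h and at 22h against 0h, the 5 members with the highest mean, members with opposite calls at 22h against 0h and 46h against 22h, and pairs called in opposite directions, and other members are given by level or range. Alternatives changed the pseudocount (0.1), the filter (none, or a mean of 5 FPKM), the scaling (median-of-ratios, quantile, TPM, and TPM leaving out mitochondrially encoded genes), the libraries fitted (the compared stages alone, or each library left out in turn), the trend (none) and the blocking (by replicate number). Tables and figures were made with Python 3.11.15 and matplotlib 3.10.9.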

Additional observations from a re-analysis of the deposited data

Results flagged for a closer look

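In 63 groups of 4 libraries (21 genes at 3 times), 2 held a library whose gap to its nearest neighbour, as a share of the range of the group on the log2(FPKM + 1) scale, was above Dixon's critical value for 4 values, where chance gives about 1 in 20. COPZ1 at 0h was 14.9 FPKM in replicate 4, against 21.3 to 22.8 in the other 0h libraries (gap over range 0.838). TRAPPC3 at 0h was 39.5 FPKM in the same replicate 4, against 28.2 to 29.8 in the others (0.841). Over the 51 genes tested, that library was the highest 0h library for 22 and the lowest for 18. Without it COPZ1 fell by 2.61 and TRAPPC3 rose by 1.30 on the log2 scale at 46h against 0h (limma, adjusted p = 1.11e-06 and 1.47e-05), and what sets the library apart was not tested.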

How the results depend on the processing

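Over 51 genes and 22 alternatives, 3185 of 3324 values kept their side of the threshold with no called value changing sign, 61 lost a call, 75 gained one, and 3 changed sign with a call on either side. Values that passed in neither fit could change sign and are not among these 3, such as SSR4 at 22h against 0h, at 0.24 without 0h replicate 4. Genes under the filter of a setting have no value there, among them 11 with the filter at a mean of 5 FPKM. Quantile normalization turned SEC24B to 0.0069, SEC61A2 to 0.59 and TMED3 to 0.021 at 46h against 0h. At 22h against 0h 11 genes were higher after quantile normalization and 9 with TPM leaving out mitochondrially encoded genes, and the median was -0.024 without a filter and 0.20 after quantile normalization. At 46h against 0h median-of-ratios scaling gave 12 higher genes and a median of -0.060, and quantile normalization 20 and 0.25; the median was -0.19 without a filter, -0.49 with TPM and -0.30 with TPM leaving out mitochondrially encoded genes. At 46h against 22h median-of-ratios scaling gave 9 higher genes and a median of 0.11, quantile normalization 12 and 0.24, and TPM 3 and -0.30, and 3 were higher without a filter, where 7.49% of all genes were higher with TPM and 3.4% without a filter. The scalings differ in where they put the median of all genes, and the cause of the changes was not tested further.

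With each library left out in turn, 3 to 8 genes were higher and 7 to 12 lower at 22h against 0h (median -0.018 to 0.16), 7 to 8 and 19 to 23 at 46h against 0h (-0.44 to -0.18), and 3 to 5 and 17 to 18 at 46h against 22h (-0.30 to -0.13). The 22h count of higher genes was 3 without 0h replicate 2 and 8 without 0h replicate 4 or without 22h replicate 1, where 5.71%, 12.5% and 8.9% of all genes were higher, and that of lower genes 7 without 0h replicate 1 (18.1% of all genes). The 46h against 22h count of higher genes was 3 without 22h replicate 1, 22h replicate 2 or 46h replicate 4 (8.22%, 9.67% and 8.26% of all genes). A replicate block gave 5 higher and 10 lower, 7 and 21, and 5 and 17 in the order above, and of the 51 genes only COG4 at 22h against 0h changed its call. Same-numbered libraries did not all deviate together: between 22h and 0h and between 46h and 0h r lay between -0.466 and 0.0845, and between 46h and 22h it was 0.381, 0.0088, 0.211 and 0.127 for numbers 1 to 4, of which 1, 3 and 4 matched their own number best, as a hint from the data. Of the ratios, SEC24A over SEC24B at 46h against 22h passed with a pseudocount of 0.1 (0.52, exact permutation p = 0.0286), and ARF4 over ARF5 did not (1.76, exact permutation p = 0.0857).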
